A study of Mus musculus with 8 samples.

Results

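The colonic epithelium absorbs salt and water at its surface and secretes chloride from its crypts, and each task is carried by a known set of channels, exchangers and pumps. Sodium enters colonocytes through the exchanger NHE3 (Slc9a3) and the epithelial sodium channel, chloride through the exchanger DRA (Slc26a3), and water follows, in part through aquaporins. In crypts the cotransporter NKCC1 (Slc12a2) loads chloride into the cell, CFTR lets it out into the lumen, and potassium channels with the subunit KCNE3 keep up the driving force. The 10 genes described here were taken from this textbook division, 7 of them absorptive (Aqp8, Aqp4, Slc26a3, Slc9a3, Scnn1a, Scnn1b and Atp12a) and 3 secretory (Cftr, Slc12a2 and Kcne3). Each was measured by 1 probe set that carries a single gene symbol, among 22180 genes on the array.

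Colon cells were taken from female C57BL/6 mice on day 2 after a bone marrow transplant, in a study of the onset of graft-versus-host disease. Allogeneic recipients (n = 4 biological replicates) had donors of another strain, LP/J, with T cells able to react to the host. Syngeneic recipients (n = 4 biological replicates) had C57BL/6 donors. Both groups had 5 days of busulfan and cyclophosphamide before the transplant and received bone marrow and T cells in the same numbers, so the comparison is between donor types and holds no untreated colon. The age of the mice was not given in the sources used here. Each array held 1 sample of collagenase-digested colon, sorted as endothelium by the presence of CD31 and the absence of CD45 and CD11b. Values are log2 signals after RMA, on which a difference of 1 is a doubling, and changes are allogeneic minus syngeneic.

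All 10 transporters were listed for their role in the colonic epithelium, and the samples were sorted for endothelium. The endothelial genes Pecam1 and Cdh5 lay between 9.76 and 11.58 and between 9.2 and 11.37 on the 8 arrays. The leukocyte genes Ptprc and Itgam, whose products the sort excluded, averaged 5.2 and 5.34, near the medians of the arrays (4.68 to 4.79). Over the 8 arrays they ranged from 4.42 to 6.18 and from 4.99 to 5.92. Epithelial genes were also well above those medians on every array. The lowest values on any array were 8.93 for Epcam, 10.94 for Cdh1, 11.64 for Krt8, 10.14 for Krt20, 12.44 for the colonocyte carbonic anhydrase Car1 and 12.3 for the goblet cell mucin Muc2. The signal of the transporters can therefore not be assigned to endothelial cells. In such mixed samples fewer cells of a type and less RNA per cell cannot be told apart.

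Epithelial and endothelial markers leaned in opposite directions, without any call. Of 16 colon epithelium markers 15 had a positive change, against 49% of all genes, with a median of 0.18. None of these markers passed the test (4 were higher and 0 lower at an unadjusted p below 0.05 in limma, against 7.81% and 5.43% of all genes). Their mean was between 9.95 and 10.1 on the allogeneic arrays, against 9.93, 10.02, 9.76 and 9.52 on syngeneic arrays 1 to 4, and the log2 of their summed signal ran from 14.61 to 14.67 in the allogeneic group, against 14.16 to 14.62 in the syngeneic group. All 20 endothelial markers had a negative change, with a median of -0.68. None of them passed (0 higher and 6 lower at an unadjusted p below 0.05, against the same shares of all genes). Their mean was 7.67, 7.82, 8.34 and 8.4 on the allogeneic arrays, against 8.29, 7.97, 9.01 and 9.93 on the syngeneic arrays. Syngeneic arrays 3 and 4 thus had the most endothelial and the least epithelial signal of the 8, and the part of either marker list in the results on the transporters was not tested beyond the fits with them as covariates. None of the 16 epithelial markers was near the signal of Y-linked genes, which was at most 3.18 in these female mice.

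The promoters of the 2 transporters with the largest difference between the groups, Aqp8 and Cftr, and of the exchanger gene Slc26a3 are printed to show how unlike they are. Each window runs from 250 bases before to 50 bases after an annotated start site and was taken from RefSeq (GRCm38.p6). Windows of 6 of the 10 genes were examined, and those of Aqp4, Scnn1a, Atp12a and Slc12a2 were not. Capitals mark matches, on either strand, to a TATA box (TATAAA), a GC box (GGGCGG), a CDX motif (TTTATNG), an HNF1 motif (GTTAAT) and a steroid receptor motif (TGTTCT). CDX and HNF1 proteins are transcription factors of the gut epithelium, and steroid receptors mediate the action of aldosterone and glucocorticoids on colonic sodium transport.
Aqp8, chr7:123462044-123462343, plus strand: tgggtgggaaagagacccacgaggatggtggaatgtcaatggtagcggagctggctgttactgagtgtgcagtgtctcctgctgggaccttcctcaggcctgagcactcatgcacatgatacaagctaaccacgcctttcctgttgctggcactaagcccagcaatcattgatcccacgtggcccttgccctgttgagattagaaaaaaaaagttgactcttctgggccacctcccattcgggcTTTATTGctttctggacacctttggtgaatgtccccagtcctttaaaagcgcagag
Slc26a3, chr12:31437969-31438268, plus strand: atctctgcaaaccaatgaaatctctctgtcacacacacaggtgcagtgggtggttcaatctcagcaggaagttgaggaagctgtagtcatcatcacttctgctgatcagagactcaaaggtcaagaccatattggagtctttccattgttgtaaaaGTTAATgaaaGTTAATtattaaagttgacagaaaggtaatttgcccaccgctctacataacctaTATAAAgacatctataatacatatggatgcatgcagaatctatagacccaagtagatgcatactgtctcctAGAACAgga
Cftr, chr6:18170437-18170736, plus strand: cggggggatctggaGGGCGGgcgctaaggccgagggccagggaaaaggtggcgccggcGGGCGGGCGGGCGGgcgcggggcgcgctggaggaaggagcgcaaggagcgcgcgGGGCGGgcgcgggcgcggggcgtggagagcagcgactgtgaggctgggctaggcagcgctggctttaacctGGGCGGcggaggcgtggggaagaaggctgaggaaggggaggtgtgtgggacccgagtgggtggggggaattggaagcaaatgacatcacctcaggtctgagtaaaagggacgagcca

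The Cftr window was 71.3% G and C and held 6 GC box matches, of which a run of 3 overlap, and none of the other motifs. The Slc26a3 window was 39.3% G and C and held a TATA box match that starts 30 bases before the start site, 2 HNF1 matches and 1 steroid receptor match. The Aqp8 window was 52% G and C, close to the median of 52.7% over all 32851 windows, and held 1 CDX match, at the start site. GC box matches were found in 35.7% of all windows, TATA box matches in 13.6%, steroid receptor matches in 19%, CDX matches in 10.9% and HNF1 matches in 7.1%. Kcne3, with 2 windows in the table, and Slc9a3 held 2 and 3 GC box matches, and Scnn1b 1. Cftr and Aqp8, similar in the size of their difference between the groups, shared none of the 5 motifs in these windows.

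No transporter passed the test over all genes, and all 10 had a higher mean in the allogeneic group. At an adjusted p below 0.05 (limma, Benjamini-Hochberg over all genes) 0 of 10 were called, where 0.469% of all genes were, so that a count of 0 is near the background. At an unadjusted p below 0.05, 7 of 10 were higher in the allogeneic group, against 7.81% of all genes, and 0 of 10 were lower, against 5.43%. The 4 allogeneic arrays lay above the 4 syngeneic arrays for 4 of the 10 genes, 2 of 7 absorptive (Aqp8 and Aqp4) and 2 of 3 secretory (Cftr and Kcne3), against 5.18% of all genes, and lay below them for 0 of 10, against 3.36%. The median change was 0.52 over the 7 absorptive genes and 0.47 over the 3 secretory ones, against -0.01 over all genes and 0.18 over the colon epithelium markers. The secretory median was 0.26 without syngeneic array 4, 0.22 with the endothelial list mean as a covariate and 0.17 with the epithelial one. In the same settings the absorptive median was 0.36, 0.38 and 0.27. The changes ran from 0.20 to 1.53 among the absorptive genes and from 0.29 to 1.63 among the secretory ones, so the 2 ranges overlap almost wholly. Markers of the cells in which these genes are best known also leaned upward. Of 10 surface colonocyte markers 7 had a positive change, with a median of 0.24, and 2 rose, against 0.356% of all genes. These were the brush border protease gene Mep1a, by 3.51-fold, and the sulfotransferase gene Sult1a1, by 2.52-fold (limma adjusted p = 0.038 and 0.034). The mean of the surface colonocyte list differed by 0.61 between the groups, against 0.65 for the mean of the 7 absorptive transporters. This mean was uneven over its genes, whose changes ran from -0.06 to 2.13. The highest was that of Cyp2c55, whose groups overlap (limma adjusted p = 0.389). Krt20 and Car1 changed by 0.16 and 0.32, and 3 genes of the list had a negative change. Of 9 crypt markers 7 had a positive change, with a median of 0.28, and none passed. At an unadjusted p below 0.05 in limma 3 of them were higher and 1 lower, against 7.81% and 5.43% of all genes. The part of either cell type in the values of the transporters was not tested.

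**Figure D1:**
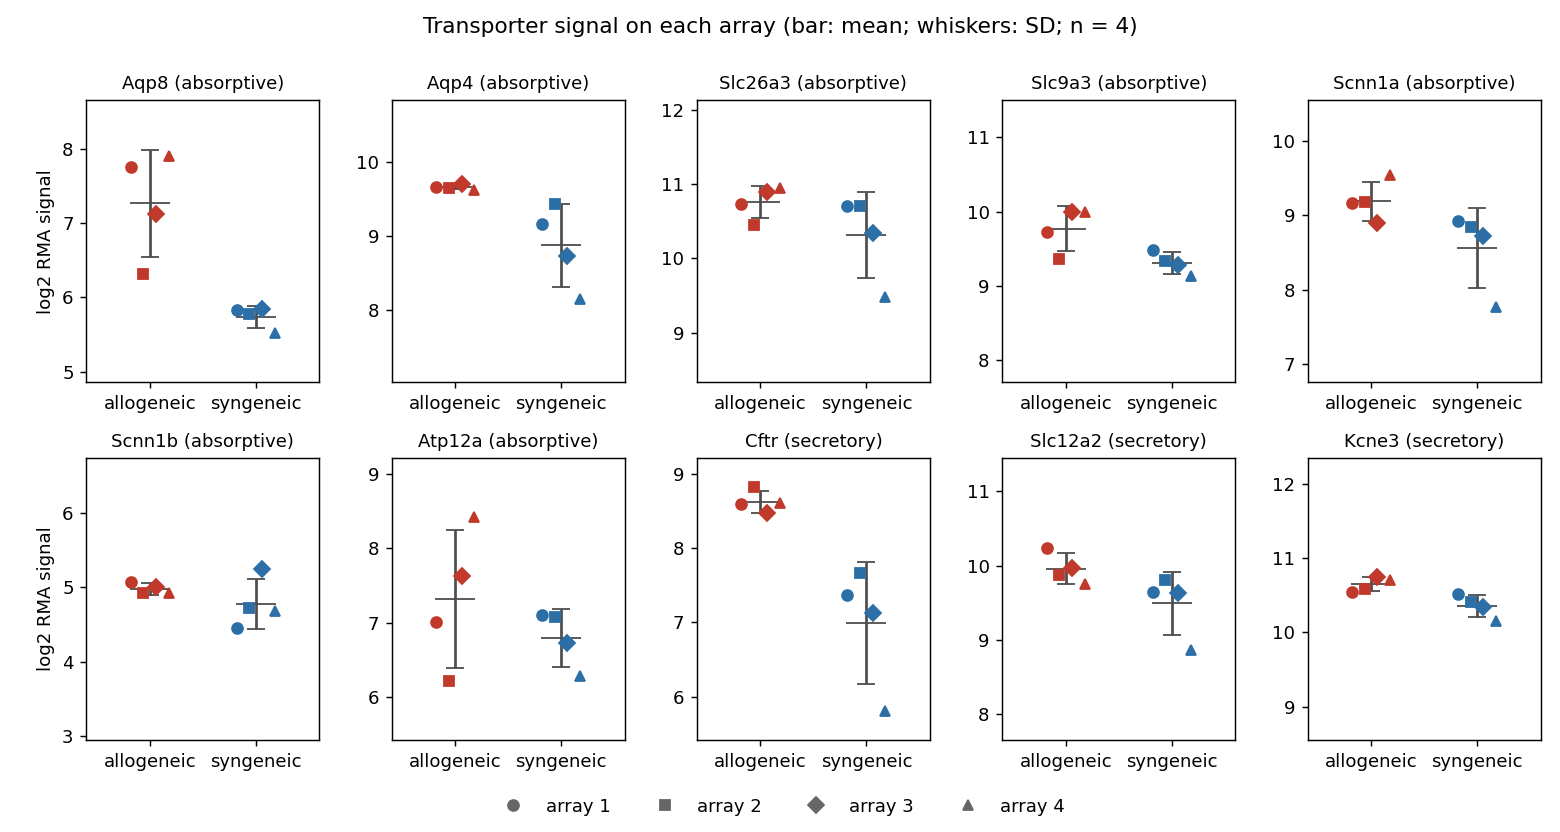
Log2 RMA signal of the 10 transporters (vertical axes, all spanning the same number of log2 units) on the allogeneic arrays (left, red) and syngeneic arrays (right, blue), with the marker shape giving the array number, the bar the mean and the whiskers the SD (n = 4 each). The groups do not overlap for Aqp8, Aqp4, Cftr and Kcne3, and syngeneic array 4 (triangle) is the lowest of the 8 arrays for 8 of the 10 genes.

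Aqp8, the aquaporin of surface colonocytes, had the largest difference among the absorptive genes. Its signal was 7.75, 6.32, 7.12 and 7.9 on allogeneic arrays 1 to 4, against 5.83, 5.77, 5.84 and 5.52 on syngeneic arrays 1 to 4. The syngeneic arrays were close to each other, at a low signal near the 5.34 that Itgam averaged. Whether so low a signal narrowed their spread was not tested. Every allogeneic array lay above every syngeneic one, and the spread was in the allogeneic group. The means were 7.27 ± 0.72 and 5.74 ± 0.15 (SD, n = 4 each), a change of 1.53 ± 0.30 (SE, 95% interval 0.87 to 2.19), or 2.89-fold, which just missed the threshold (limma adjusted p = 0.0575). The difference was nearly as large without syngeneic arrays 3 and 4, at 1.47 (limma adjusted p = 0.191), 1.51 with the endothelial list mean as a covariate (0.145) and 1.32 with the epithelial one (0.286). When each array was left out in turn, the change passed only without allogeneic array 2, the lowest of its group, whose removal must enlarge it (1.85, limma adjusted p = 0.0213). In the other 7 fits the adjusted p lay between 0.0757 and 0.171.

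Aqp4, a water channel of the basolateral membrane, was even within the allogeneic group and uneven within the syngeneic one. It had 9.66, 9.64, 9.7 and 9.62 on the allogeneic arrays, against 9.16, 9.43, 8.73 and 8.15 on the syngeneic arrays, without overlap. The change of 0.79 ± 0.23 (SE) did not pass (limma adjusted p = 0.162). It was 0.36 without syngeneic arrays 3 and 4, the lowest for this gene, and 0.30 with the epithelial covariate (limma adjusted p = 0.595). The 2 aquaporins of the set thus reached their differences in opposite ways, Aqp8 with scattered allogeneic values and Aqp4 with scattered syngeneic ones.

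The apical exchangers, which together take up sodium chloride, differed little. Slc26a3 had 10.73, 10.45, 10.89 and 10.95 on the allogeneic arrays, against 10.71, 10.7, 10.34 and 9.48 on the syngeneic arrays. Slc9a3 had 9.73, 9.36, 9.99 and 9.99 on the allogeneic arrays, against 9.48, 9.34, 9.28 and 9.13 on the syngeneic arrays. Both sets of values overlap, and for Slc26a3 syngeneic array 4 lay well below the other 7 arrays. The changes were 0.45 ± 0.24 for Slc26a3 and 0.46 ± 0.15 for Slc9a3 (SE, limma adjusted p = 0.469 and 0.218), with 95% intervals of -0.09 to 0.99 and 0.13 to 0.79. Without syngeneic arrays 3 and 4 that of Slc26a3 was 0.05, and with the epithelial covariate -0.07, while that of Slc9a3 was 0.36 and 0.34.

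Scnn1a and Scnn1b encode the alpha and beta subunits of the epithelial sodium channel, through which aldosterone drives sodium uptake in the distal colon. Scnn1a had 9.16, 9.18, 8.9 and 9.54 on the allogeneic arrays, against 8.93, 8.85, 8.72 and 7.76 on the syngeneic arrays, which overlap by a single pair (8.9 and 8.93). Its change was 0.63 ± 0.25 (SE, limma adjusted p = 0.299), and 0.31 without syngeneic arrays 3 and 4. Scnn1b stayed close to the medians of the arrays, at 5.08, 4.93, 5.0 and 4.92 on the allogeneic arrays, against 4.46, 4.73, 5.25 and 4.68 on the syngeneic arrays, and at so low a signal a change can be understated. Its change of 0.20 ± 0.17 was the smallest of the 10 (SE, limma adjusted p = 0.665, 95% interval -0.17 to 0.57). The gamma subunit gene Scnn1g, read from the list of further transport genes, had a change of -0.13 ± 0.23 (SE, limma adjusted p = 0.864).

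Atp12a, the catalytic subunit of the colonic proton and potassium pump, varied most within a group. It had 7.01, 6.22, 7.63 and 8.42 on the allogeneic arrays, against 7.11, 7.08, 6.73 and 6.28 on the syngeneic arrays. The allogeneic values spanned the whole syngeneic range, and the change of 0.52 ± 0.40 (SE) did not pass (limma adjusted p = 0.632). It was 0.15 without allogeneic array 4, 0.88 without allogeneic array 2 and 0.06 with the epithelial covariate. Allogeneic array 2 was the lowest of its group for Aqp8, Slc26a3, Slc9a3 and Atp12a, 4 of the 7 absorptive genes and 0 of the 3 secretory ones, against 25.5% of all genes. Allogeneic array 4 was the highest for Aqp8, Slc26a3, Scnn1a and Atp12a, again 4 of 7 and 0 of 3, against 27.3% of all genes. The mean of 6 fibroblast markers was also lowest on allogeneic array 2 and highest on array 4 (7.77, 7.45, 7.86 and 8.51 on arrays 1 to 4). The colon epithelium and surface colonocyte means were highest on array 4 as well (10.1 and 10.83) but lowest on array 3 (9.95 and 10.41). The crypt mean was lowest on array 4 (7.47). The part of any of these lists in the order of the arrays was not tested.

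Cftr, the chloride channel of the crypt that cyclic AMP opens, had the largest difference of all 10 genes. Its signal was 8.6, 8.82, 8.47 and 8.61 on the allogeneic arrays, against 7.37, 7.67, 7.12 and 5.81 on the syngeneic arrays. The allogeneic arrays were alike, and the lowest of them lay well above the highest syngeneic array. The means were 8.62 ± 0.15 and 6.99 ± 0.82 (SD, n = 4 each), a change of 1.63 ± 0.33 (SE, 95% interval 0.90 to 2.36), or 3.1-fold, which just missed the threshold (limma adjusted p = 0.0616). Without syngeneic array 4, the lowest, the change was 1.24 and passed (limma adjusted p = 0.0157), as it did without syngeneic array 2, the highest of its group (1.86, 0.0382). Without any other single array the adjusted p lay between 0.1 and 0.183. Without syngeneic arrays 3 and 4 it was 1.11 and passed as well (0.0365), whereas with the epithelial covariate it was 0.92 (0.173) and with the endothelial one 1.04 (0.0759).

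The other secretory genes differed less. Slc12a2, the basolateral sodium, potassium and chloride cotransporter, had 10.24, 9.87, 9.97 and 9.75 on the allogeneic arrays, against 9.65, 9.81, 9.63 and 8.86 on the syngeneic arrays. Kcne3, the subunit that holds the potassium channel KCNQ1 open, had 10.55, 10.59, 10.74 and 10.71 on the allogeneic arrays, against 10.52, 10.41, 10.34 and 10.16 on the syngeneic arrays. The groups overlap for Slc12a2 and lie just apart for Kcne3. The changes were 0.47 ± 0.20 and 0.29 ± 0.10 (SE, limma adjusted p = 0.341 and 0.229), and 0.22 and 0.18 without syngeneic arrays 3 and 4. Cftr thus differed 3.1-fold while the gene for the cotransporter that supplies its chloride differed 1.38-fold and that for the potassium channel subunit 1.22-fold.

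Syngeneic array 4 was the lowest of the 8 arrays for 8 of the 10 genes, 5 of 7 absorptive and 3 of 3 secretory, and for 81.2% of the colon epithelium markers and 17% of all genes. It also had the lowest epithelial and the highest endothelial list mean (9.52 and 9.93). When each array's epithelial list mean was subtracted, the groups still did not overlap for 3 of 10 genes, against 1.63% of all genes. These were Aqp8, with a difference of 1.32 between the group means, Aqp4 with 0.58 and Cftr with 1.42. For Kcne3 that difference was 0.08, for Scnn1b -0.01, and for the other 5 genes 0.24 to 0.42. With the same list mean as a covariate the changes were smaller for most, at 0.30 for Aqp4, 0.12 for Scnn1a, 0.06 for Atp12a, 0.13 for Slc12a2 and 0.92 for Cftr. Without syngeneic arrays 3 and 4 the groups did not overlap for 5 of 10 genes (Aqp8, Aqp4, Scnn1b, Cftr and Kcne3), against 10.7% of all genes.

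**Figure D2:**
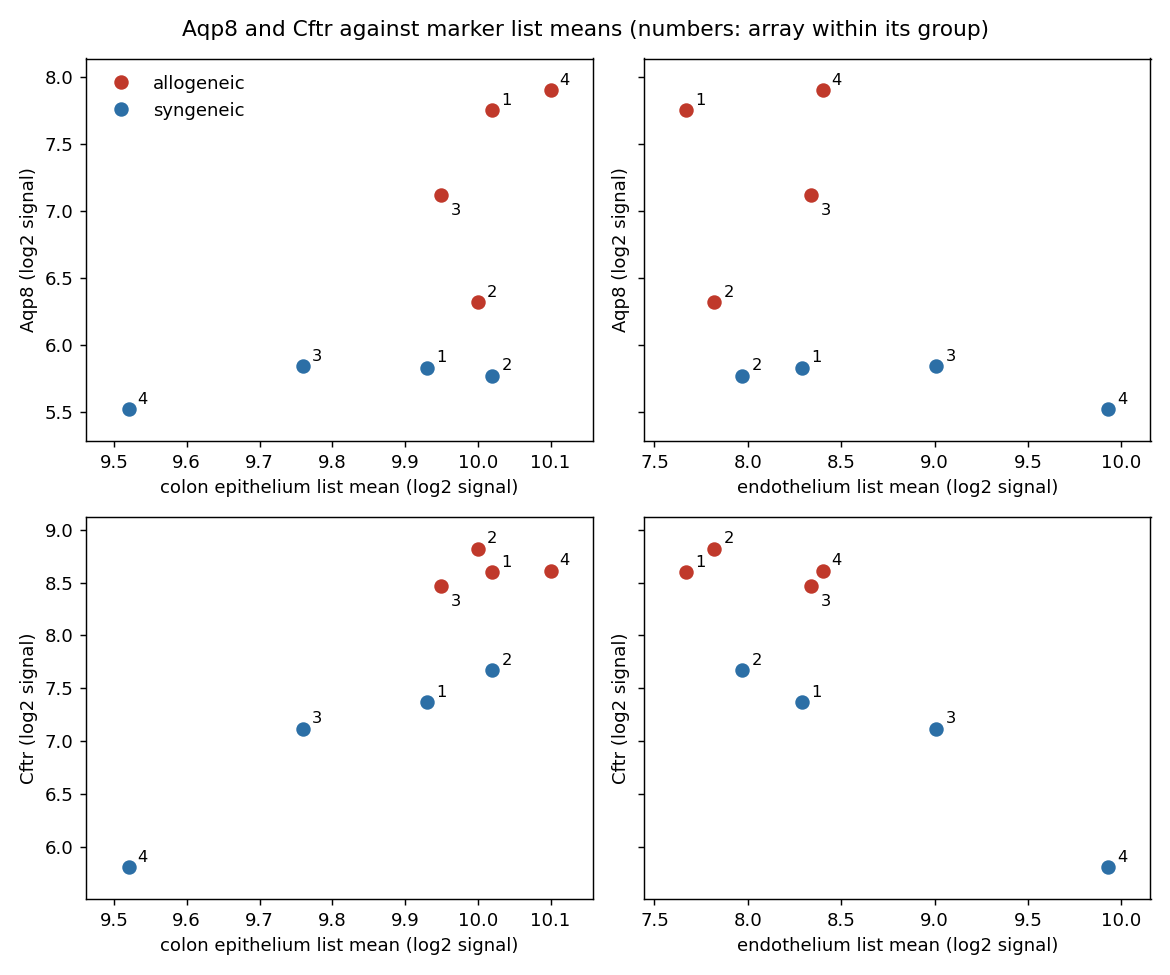
Log2 signal of Aqp8 (top) and Cftr (bottom) on each array against the mean log2 signal of the colon epithelium list (left, 16 genes) and of the endothelium list (right, 20 genes), with allogeneic arrays in red, syngeneic arrays in blue and the array number beside each point. The allogeneic arrays lie above the syngeneic ones for both genes, by little for Aqp8 on allogeneic array 2 (6.32, against 5.84 on the highest syngeneic array), and syngeneic array 4 lies apart at the lowest epithelial and highest endothelial mean.

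**Figure D3:**
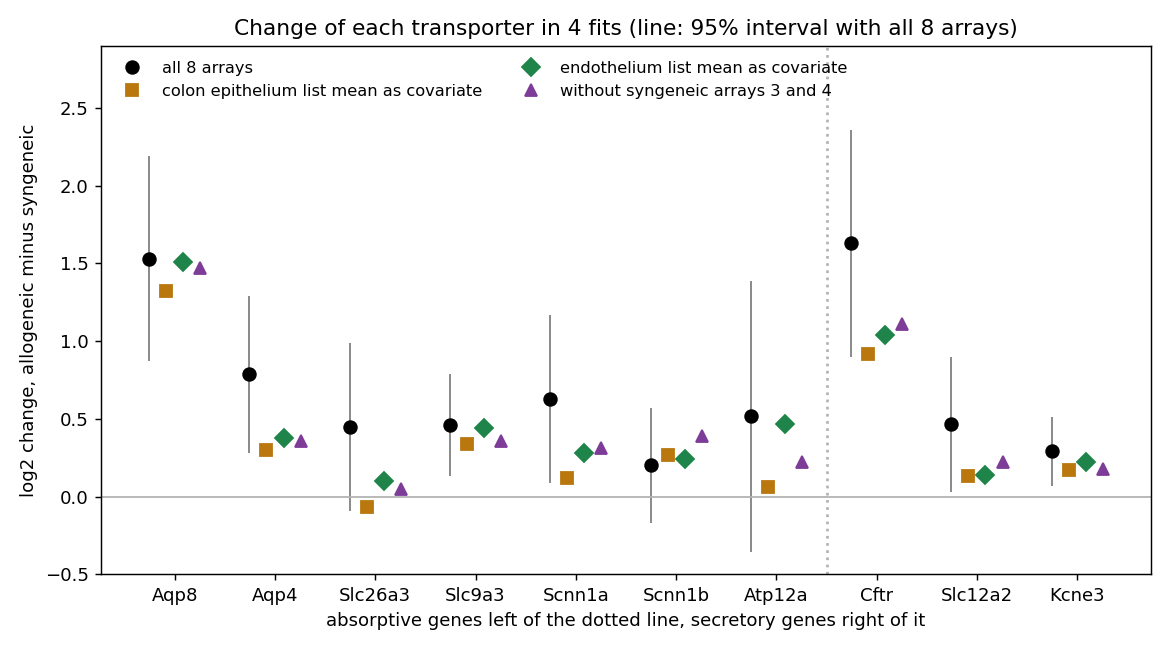
Log2 change (allogeneic minus syngeneic, vertical axis) of each transporter in the fit of all 8 arrays (black, with its 95% interval), with the epithelial or the endothelial list mean as a covariate, and without syngeneic arrays 3 and 4. Aqp8 stays between 1.32 and 1.53 in the 4 fits and Cftr between 0.92 and 1.63, while Slc26a3 lies between -0.07 and 0.45.

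Further genes of absorption gave 2 calls. Of 14 measured genes on that list Slc9a2 and Slc6a14 rose, none fell and 12 did not pass, with a median change of 0.21, where 0.356% of all genes rose and 0.113% fell. Slc9a2, the sodium and proton exchanger NHE2, had 8.75, 8.46, 8.28 and 8.63 on the allogeneic arrays, against 7.51, 7.83, 7.15 and 6.7 on the syngeneic arrays. Slc6a14, an amino acid transporter driven by sodium and chloride, had 9.32, 9.42, 9.33 and 9.7 on the allogeneic arrays, against 8.41, 8.46, 7.84 and 7.03 on the syngeneic arrays. The groups do not overlap for either, and both calls lie at the edge of the threshold. The rises were 2.35-fold and 2.84-fold (changes of 1.23 ± 0.23 and 1.51 ± 0.28, SE, limma adjusted p = 0.0493 for both). Both calls were lost with the epithelial covariate (0.77 and 0.88, limma adjusted p = 0.154 and 0.0833), and without syngeneic arrays 3 and 4 that of Slc9a2 was lost (0.86, 0.106) and that of Slc6a14 held (1.01, 0.0334). Slc26a2, a sulfate transporter, had a change of 0.75 (limma adjusted p = 0.0962) and Slc26a6, an anion exchanger, one of -0.70 (0.0741). The signal of Slc26a6 was low, with means of 4.93 in the allogeneic and 5.64 in the syngeneic group. Over the whole list the groups did not overlap for 6 genes higher and 1 lower, against 5.18% and 3.36% of all genes.

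Of 13 further genes of secretion 1 fell, none rose and 12 did not pass, with a median change of 0.44, against 0.113% of all genes that fell and 0.356% that rose. The gene that fell was Clca4b, of the family of CLCA proteins that modulate chloride conductance. It had 9.88, 9.25, 9.85 and 8.65 on the allogeneic arrays, against 11.43, 11.33, 11.45 and 10.71 on the syngeneic arrays. It fell by 1.82 on the log2 scale (SE 0.27, limma adjusted p = 0.0238), and every allogeneic array lay below every syngeneic one. Genes of this family are alike in sequence, so that its probes may read a relative, and Clca4a had a change of 0.41 ± 0.25 (SE, limma adjusted p = 0.529). With the epithelial covariate Clca4b changed by -1.95 and missed the threshold (limma adjusted p = 0.0971), as it did without syngeneic arrays 3 and 4 (-1.97, 0.0529). Ano1, the calcium-activated chloride channel, had a change of 0.85, the bicarbonate cotransporter gene Slc4a4 one of 0.91, and Kcnq1, the pore that Kcne3 modulates, one of 0.66 (limma adjusted p = 0.138, 0.188 and 0.152). Over the whole list the groups did not overlap for 5 genes higher and 1 lower, against 5.18% and 3.36% of all genes.

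The sodium pump and the regulators of transport gave no call, where 0.356% of all genes were called higher and 0.113% lower. Of 3 measured pump genes Atp1b1, the beta subunit of most epithelia, had a change of 0.36, Atp1b3 one of -0.56 and the colonic pump modulator Fxyd4 one of 0.11 (limma adjusted p = 0.304, 0.247 and 0.928), and at an unadjusted p below 0.05, 1 was higher and 1 lower. Of 20 measured regulators 18 had a positive change, with a median of 0.40, and at an unadjusted p below 0.05, 10 were higher and 0 lower, against 7.81% and 5.43% of all genes. Ptger4, which encodes a prostaglandin E2 receptor that raises cyclic AMP, had a change of 0.78. Guca2a, the precursor of the secretagogue guanylin, had one of 0.73, Wnk4, a kinase that controls ion transport, one of 0.49, and Prss8, a protease that activates the epithelial sodium channel, one of 0.67 (limma adjusted p = 0.103, 0.121, 0.158 and 0.205 in this order). These 4 were named for their small p, and over the whole list every allogeneic array lay above every syngeneic one for 6 of 20 genes, against 5.18% of all genes.

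**Figure D4:**
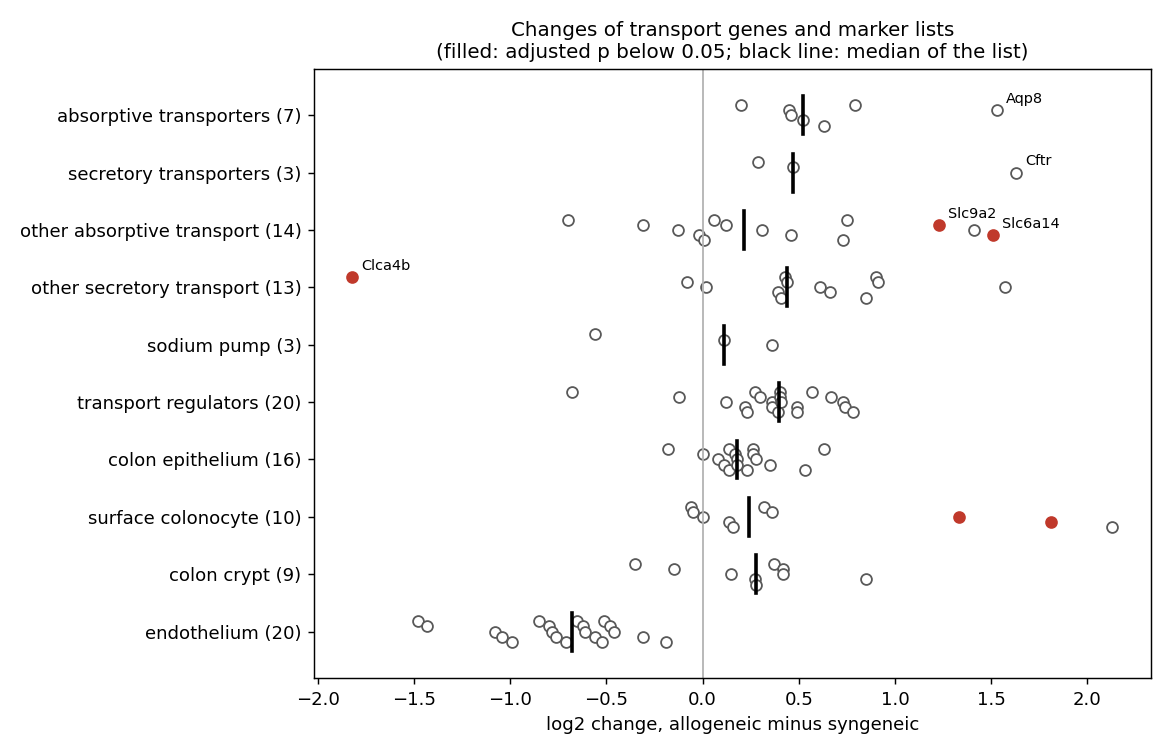
Log2 changes (allogeneic minus syngeneic, horizontal axis) of the absorptive and secretory transporters, of the 4 lists of further transport genes and of 4 marker lists, 1 point per gene with the number of genes in brackets, the black line at the median, and genes past an adjusted p of 0.05 filled. The medians of the absorptive and secretory transporters are 0.52 and 0.47, and all 20 endothelial markers lie below 0.

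The genes whose pattern over the 8 arrays was most like that of Cftr were Ttr, which encodes the thyroid hormone carrier transthyretin, Slc6a14, and the ceramidase gene Acer1. Likeness was measured as the root mean square difference of mean-centred log2 values, which was 0.166, 0.199 and 0.204. Ttr had 8.89, 8.98, 8.58 and 8.96 on the allogeneic arrays, against 7.3, 7.93, 6.96 and 5.92 on the syngeneic arrays. Acer1 had 8.13, 8.25, 8.4 and 8.18 on the allogeneic arrays, against 6.81, 7.09, 6.94 and 5.73 on the syngeneic arrays. These genes were chosen for their likeness to Cftr over the same arrays, so the shared pattern is a description. Their changes were 1.83 for Ttr, 1.51 for Slc6a14 and 1.6 for Acer1 (limma adjusted p = 0.0508, 0.0493 and 0.034).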

How the data were processed

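Total RNA of sorted colon cells (700 pg per sample) was amplified and hybridised to Affymetrix Mouse Gene 2.0 arrays, per the labels' protocols. The deposited table holds log2 signals, which the authors obtained by RMA in Affymetrix Expression Console 1.4.1, as the submitters' processing notes state. RMA corrects background and normalizes quantiles, so levels are relative to the other transcripts of a sample, and changes of genes at low signal are compressed. The authors' probe annotation and any array batch are not given in these sources, and detection calls were not used here.

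Of 41345 probe sets 23521 had exactly 1 gene symbol in the platform annotation. For each of the 22180 genes the probe set with the highest mean was used. A linear model with a term for donor type was fitted with limma 3.58.1 in R 4.3.3 (eBayes with an intensity trend, no filter), with Benjamini-Hochberg adjustment over the whole table. The pipeline was tested on simulated data. The number of arrays limits the precision. The transporters, lists and alternatives were chosen with earlier results of these data known. Named are the 10 transporters, up to 4 genes with the smallest p in each further list, 3 genes closest in pattern to Cftr, and 10 genes that check the sort. The counts of non-overlapping genes after subtracting the epithelial list mean, and without syngeneic arrays 3 and 4, were alternatives added after the data were seen. Scnn1g, Clca4a, Mep1a, Sult1a1 and Cyp2c55 were named after their values were seen. Same-numbered arrays were not paired, as correlations of their deviations lay between -0.096 and 0.095. Sequences are from RefSeq tables (GRCm38.p6).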

Additional observations from a re-analysis of the deposited data

Results flagged for a closer look

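In 3 of 54 groups of 4 arrays tested, 1 array stood far from the other 3, a share close to the 1 in 20 that chance gives. Slc26a6 had 5.19 on allogeneic array 3, with 4.83 to 4.87 on the other allogeneic arrays. Clca4b had 10.71 on syngeneic array 4, with 11.33 to 11.45 on the other syngeneic arrays. Ptger4 had 7.13 on allogeneic array 3, with 7.77 to 7.85 on the other allogeneic arrays. None of the 10 transporters had such an array.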

How the results depend on the processing

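Some of the 20 alternatives could not alter the changes of the transporters. These were all probe sets tested, the mean of a gene's probe sets, no intensity trend, the replicate block and the threshold of 0.1. Under the others all 10 changes kept their sign where tested, except that of Slc26a3, which was -0.07 with the epithelial covariate. Between 0 and 1 transporters passed when 1 array was left out, and likewise between 0 and 1 of the absorptive and 0 and 1 of the secretory genes. Aqp8 and Cftr, 2 of 10 or 1 of each kind, passed with array weights, where 115 of 22180 genes were higher and 39 lower. They also passed among genes above the median gene, where Scnn1b was not tested and 138 of 11090 genes were higher and 55 lower. Both passed at an adjusted p threshold of 0.1, where 1.38% of all genes passed. Without syngeneic arrays 3 and 4 Cftr alone passed, which makes 1 transporter, and over all genes 26 were higher and 12 lower. The 3 calls in the further lists were 1 with all probe sets tested, without an intensity trend, with the endothelial covariate, without syngeneic arrays 3 and 4, with the mean of a gene's probe sets and with quantile normalization repeated. Over all genes those settings called 25 to 80 higher and 12 to 25 lower. The further lists held 0 calls with the epithelial covariate and 5 at a threshold of 0.1, where 1.38% of all genes passed. When 1 array was left out they held 0 to 5, with 5 without syngeneic array 2 and 0 without allogeneic array 1 or 2 or syngeneic array 1 or 3. Slc9a2 lost its call under 14 of 20 alternatives, Slc6a14 under 13 and Clca4b under 6. Fxyd4 was at -0.16 with the epithelial covariate, and between -0.19 and 0.36 with 1 array left out. The causes were not tested. With the replicate number as a block, which the data did not bear out as a pairing (3 of 8 arrays were closest to their own number), 0 transporters and 1 gene of the further lists passed, and over all genes 40 were higher and 28 lower, against 79 and 25. With 1 array left out the calls over all genes ranged from 4 higher and 4 lower without syngeneic array 3 to 145 and 35 without syngeneic array 2. They were 4 and 3 with the epithelial covariate. Signal over background limits Scnn1b and Scnn1g, and may limit Slc26a6 and, in the syngeneic group, Aqp8.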
